A study of Macaca mulatta with 30 samples.

Results

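GFAP, SLC1A2, SLC1A3, S100B and ALDH1L1, genes that mark astrocytes or carry out their handling of glutamate, were followed across 5 rhesus macaque RNA sources on the rhesus macaque GeneChip. They were taken by symbol, as every probe set that the platform annotation assigns to 1 of these symbols alone, which gave 7 of the 24969 probe sets with a single symbol and 5 of the 14133 genes so represented. GFAP and SLC1A3 had 2 probe sets and the other genes had 1, and no probe set with several symbols named any of them. The sources were cerebral cortex, pancreas, testis, thymus and a line of immortalized fibroblasts, all without treatment as far as the labels say, and age, sex and strain of the animals were not given in the sources used here. Each source was represented by 1 RNA sample, from which Oregon, Nebraska and Yerkes each received 2 aliquots, so that there were 6 arrays per tissue and 30 in all. The fibroblast RNA was extracted at Nebraska, that of cerebral cortex at Yerkes and the others at Oregon, so a tissue cannot be told apart from its animal or its extraction. The p-values measure the spread of labeling and hybridization among aliquots, including how tissues varied from center to center, not that between animals.

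Astrocytes are the glial cells that surround synapses and blood vessels in the brain. They take up the glutamate that neurons release through the transporters EAAT2 and EAAT1, encoded by SLC1A2 and SLC1A3, and convert it to glutamine with glutamine synthetase, encoded by GLUL. GFAP is the intermediate filament of the mature astrocyte, S100B a small calcium-binding protein, and ALDH1L1 a cytosolic enzyme of folate metabolism that is widely used to label astrocytes. Several of these genes are also used by cells outside the brain, for example S100B by peripheral glia and ALDH1L1 by epithelial cells of liver.

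The values are log2 signals summarized by RMA and were normalized within each center only. Array means did not exceed 6.39 at Oregon and Nebraska and reached 6.93 at Yerkes, so center was a term of the model, and SDs over 6 arrays include this shift. Markers of the labelled tissues were present where the labels place them. All 6 neuron markers measured stood above every other tissue in cerebral cortex, and the acinar (6), thymocyte (4), fibroblast (7) and testis (5) markers measured were each highest in pancreas, thymus, fibroblast and testis, respectively. The quality control of the study rated the pancreas data lower than those of the other sources and called for caution with them. Pancreas had the largest scaling factors at each center, some of them beyond the tolerance of the array maker. The medians of the pancreas arrays were on average 0.12 above those of cerebral cortex and 0.21 above those of fibroblast, the highest and lowest of the other tissues. Because levels depend on the probes, signals are compared between tissues within a probe set and not between genes.

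GFAP, SLC1A2, SLC1A3 and S100B were far higher in cerebral cortex than anywhere else, and ALDH1L1 was not. For a probe set to be called higher in cerebral cortex, all 4 of its differences from other tissues had to be positive with an adjusted p under 0.05 from limma. Of the 7 probe sets, 6 passed, covering GFAP, SLC1A2, SLC1A3 and S100B, where 10.8% of all 52865 probe sets did. The count was 6 without the pancreas arrays too. Where all 4 differences also had to reach 2 on the log2 scale, 5 of the 7 passed, from 4 genes, against 1.94% of all probe sets. Tissue accounted for 88.2% to 99.4% of the variance of the 7 probe sets over the 30 arrays, center for at most 10.4% and the difference between aliquots for 0.0574% to 0.941%, whereas the medians over all probe sets were 49.4%, 38.6% and 2.89%. The median absolute difference between the 2 aliquots of a tissue at a center was between 0.07 and 0.11 on the log2 scale (15 pairs per probe set), and the largest was 0.43, for SLC1A3 in pancreas at Nebraska.

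**Figure D1:**
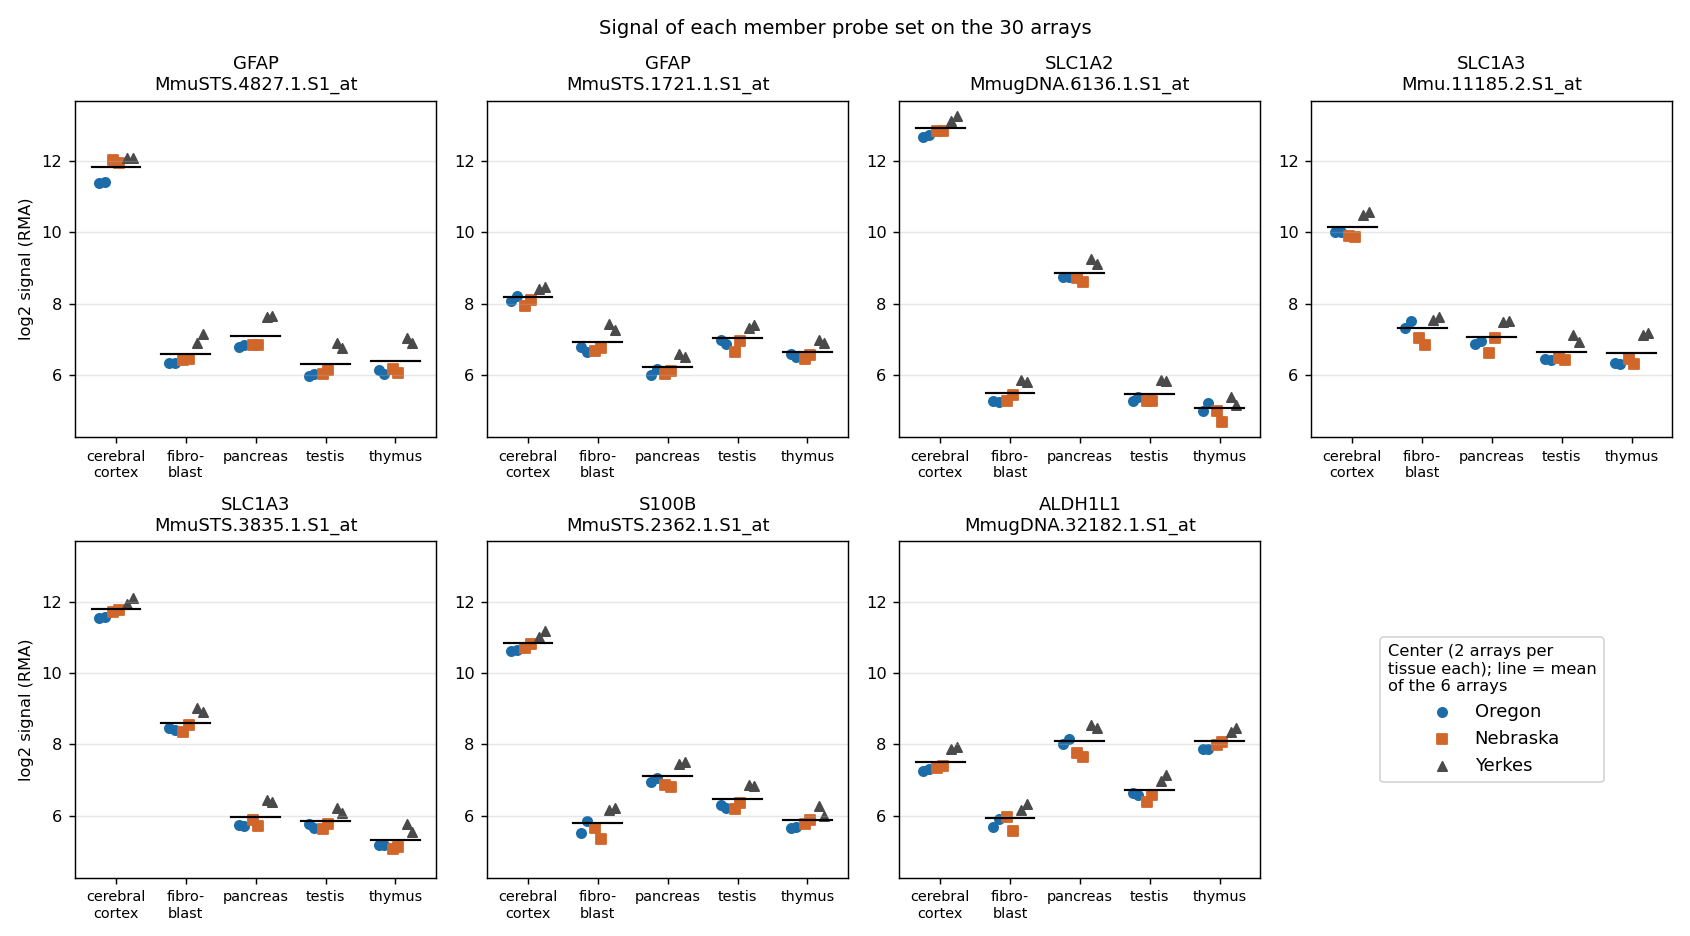
Log2 signal (y axis, RMA) of each of the 7 probe sets on all 30 arrays, with tissue on the x axis and center as the marker, with the mean of the 6 arrays of a tissue as a line. Cerebral cortex lies above all other arrays for GFAP, SLC1A2, SLC1A3 and S100B, pancreas is second for SLC1A2 (8.60 to 9.25), fibroblast is second for SLC1A3 (8.34 to 9.01 on MmuSTS.3835.1.S1_at), and ALDH1L1 is highest in thymus and pancreas.

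GFAP was measured by a strong and a weak probe set. On MmuSTS.4827.1.S1_at the log2 signal in cerebral cortex ran from 11.37 to 12.09 with a median of 11.99 (6 arrays). In pancreas, the next tissue, it ran from 6.79 to 7.66 (median 6.85), in fibroblast from 6.33 to 7.17 (median 6.43), in thymus from 6.03 to 7.04 (median 6.17) and in testis from 5.96 to 6.91 (median 6.09). No array of another tissue came near cerebral cortex, and the other 4 tissues overlapped one another over the centers together. Within each center, both pancreas arrays lay above those of fibroblast, thymus and testis. The difference from pancreas was 4.72 on the log2 scale (SE 0.09, adjusted p = 1.2e-29 from limma), a 26.4-fold difference in signal, and that from testis, the lowest tissue, was 5.51 (45.7-fold).

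Outside the brain, where GFAP is known from some peripheral glia and stellate cells, the strong probe set stood slightly above the rest in pancreas, by 0.50 over fibroblast (SE 0.09, adjusted p = 5.27e-06 from limma). The differences at Oregon, Nebraska and Yerkes were 0.48, 0.40 and 0.61. With each array centered on its median the difference fell to 0.29 and still passed (adjusted p = 0.00516), and without a center term it did not (adjusted p = 0.0597). Fibroblast exceeded testis by 0.29 (adjusted p = 0.00353) and thymus by 0.21 (adjusted p = 0.0375), and thymus and testis were not separated (0.09, adjusted p = 0.411). These small steps are to be read against the shares of all probe sets that differed at this threshold, which were large. They were 60.1% between cerebral cortex and fibroblast, 76.1% between cerebral cortex and pancreas, 68.8% between cerebral cortex and testis and 65% between cerebral cortex and thymus. Outside cerebral cortex they were 77.7% between fibroblast and pancreas, 65.8% between fibroblast and testis, 58.3% between fibroblast and thymus, 83.1% between pancreas and testis, 82.3% between pancreas and thymus and 54.8% between testis and thymus.

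The other GFAP probe set, MmuSTS.1721.1.S1_at, gave a smaller contrast and another order of the remaining tissues. Cerebral cortex ran from 7.93 to 8.46 (median 8.15), testis from 6.64 to 7.39 (median 6.97), fibroblast from 6.66 to 7.42 (median 6.77), thymus from 6.44 to 6.97 (median 6.57) and pancreas from 6.01 to 6.59 (median 6.14). Cerebral cortex was again above every other array, but by only 1.17 over testis (SE 0.06, adjusted p = 5.05e-17 from limma), or 2.25-fold. Pancreas, second on the strong probe set, was the lowest tissue here and lay below the array median on all 6 of its arrays. Testis and fibroblast were not separated (0.11, SE 0.06, adjusted p = 0.143), although leaving out 1 Nebraska testis array gave 0.15 (adjusted p = 0.0391) and leaving out 1 Yerkes fibroblast array 0.14 (adjusted p = 0.0469). Both exceeded thymus, by 0.37 and 0.27, and thymus exceeded pancreas by 0.42. After subtraction of center means, the GFAP probe sets correlated at r = 0.845 over the 30 arrays and at r = -0.813 over the 24 arrays outside cerebral cortex, which describes the same RNAs on the same arrays. The order of GFAP outside the brain thus depended on the probe set. Cerebral cortex was highest on both, but its lead over the next tissue was 4.72 on the strong probe set and 1.17 on the weak.

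**Figure D2:**
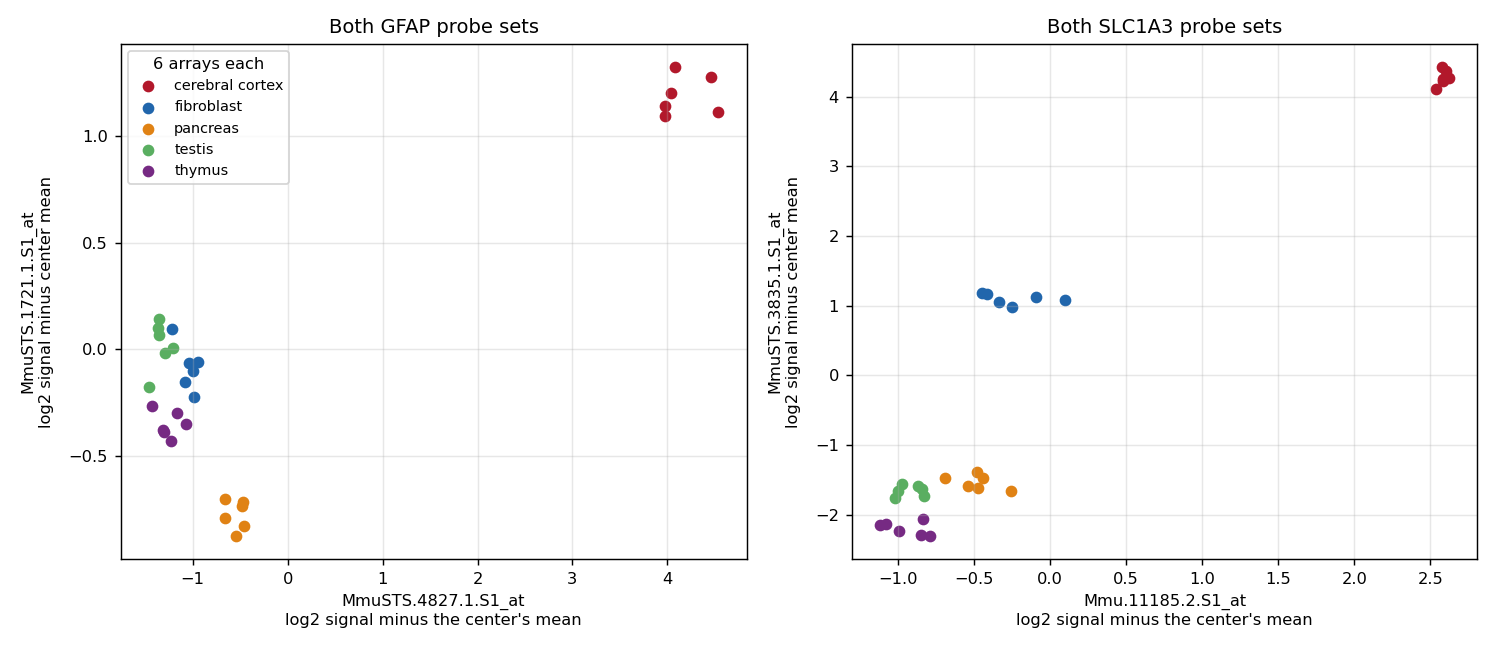
Log2 signal minus the mean of the center for the 2 probe sets of GFAP (left) and of SLC1A3 (right), 1 on each axis, each point an array colored by tissue. Cerebral cortex is at the top right in both plots; pancreas is lowest on the y axis for GFAP, and for SLC1A3 fibroblast stands apart from pancreas on the y axis and overlaps with it on the x axis.

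SLC1A2, the main glutamate transporter of forebrain astrocytes, had the largest differences of cerebral cortex from fibroblast, testis and thymus among the 7 probe sets, and a second site in pancreas. In cerebral cortex its probe set ran from 12.66 to 13.26 (median 12.85). In pancreas it ran from 8.60 to 9.25 (median 8.75), and in fibroblast from 5.26 to 5.85, in testis from 5.27 to 5.87 and in thymus from 4.69 to 5.39. The arrays fell into 3 levels without any overlap, with cerebral cortex on top, pancreas in the middle and the last 3 tissues at the bottom, below the array median on all 18 of their arrays. Cerebral cortex exceeded pancreas by 4.05 (SE 0.07, adjusted p = 5.68e-30 from limma; 16.5-fold), and fibroblast, testis and thymus by 7.42, 7.43 and 7.83. Folds against signals below the array median may understate the ratio of the RNAs.

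Pancreas exceeded fibroblast in SLC1A2 by 3.38 (SE 0.07, adjusted p = 7.62e-28), testis by 3.38 and thymus by 3.79. Being higher in pancreas than in fibroblast, testis and thymus was common, with 31.6% of all probe sets, but a difference of at least 2 from each was found in 0.515% of them. This excess over fibroblast was 3.48, 3.31 and 3.35 at Oregon, Nebraska and Yerkes, and it lay between 3.17 and 3.84 under all alternative settings that kept the pancreas arrays; the lowest of these came with each array centered on its median. Fibroblast and testis were not separated (difference under 0.01, adjusted p = 0.991), and each exceeded thymus by 0.41 (SE 0.07). Since these are bulk RNAs, fewer cells of a type and less RNA per cell cannot be told apart.

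Markers of neurons, other glia, endothelium and acinar cells were read on the same arrays. The log2 level of the 6 neuron markers averaged 6.28 in pancreas, 6.34 in fibroblast and 11.52 in cerebral cortex, and reached at most 6.75 on a pancreas array. MBP, the myelin protein of oligodendrocytes, was at 6.38 in pancreas and 13.57 in cerebral cortex. CNP, the other oligodendrocyte marker measured, was high in all tissues, at 11.03 in pancreas and 12.01 in cerebral cortex, and was not separated between cerebral cortex and testis (0.08, adjusted p = 0.276). Of the 6 peripheral glia markers measured, 3 were highest in pancreas, SOX10 (7.52), CDH19 (5.36) and FOXD3 (6.25), by 0.44 to 0.54 over cerebral cortex on the log2 scale, where 28% of all genes were highest in pancreas. ERBB3 (9.88) and NGFR (8.65) were highest in testis and PMP22 (10.49) in fibroblast, and the mean level of all 6 averaged 6.94 in pancreas, 6.91 in cerebral cortex and 7.35 in testis. The 8 microglia markers averaged 6.79 in pancreas, 7.37 in cerebral cortex and 7.24 in thymus. Thymus was the highest tissue for 4 of them and cerebral cortex for 4, against 17.9% and 17.3% of all genes. By the limma rule, 3 were higher in cerebral cortex, against 13.3% of all genes. Cerebral cortex was not separated from thymus for CSF1R (-0.06, adjusted p = 0.427) or from pancreas for AIF1 (0.06, adjusted p = 0.47). The 5 endothelium markers averaged 7.35 in pancreas and 6.67 in cerebral cortex, and 3 were highest in pancreas. The 6 acinar markers averaged 14.49 in pancreas and at most 6.02 in another tissue. The part of any of these cells in the SLC1A2 signal of pancreas was not tested.

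SLC1A3, the glutamate and aspartate transporter that astrocytes share with radial glia and other cells, was second highest in the cultured fibroblasts. On MmuSTS.3835.1.S1_at it ran from 11.55 to 12.12 in cerebral cortex (median 11.75) and from 8.34 to 9.01 in fibroblast (median 8.49). It was at 5.70 to 6.46 in pancreas, 5.62 to 6.22 in testis and 5.07 to 5.78 in thymus, and below the array median on all 18 arrays of these tissues. As for SLC1A2, 3 levels did not overlap, but here fibroblast took the middle place. Cerebral cortex exceeded fibroblast by 3.17 (SE 0.06, adjusted p = 1.13e-28 from limma; 9.02-fold), and fibroblast exceeded pancreas by 2.63 (SE 0.06, adjusted p = 3.48e-26; 6.19-fold), testis by 2.75 and thymus by 3.29. Of all probe sets, 12.4% were higher in fibroblast than in pancreas, testis and thymus, and 1.04% by at least 2. The fibroblast excess over pancreas was 2.71, 2.64 and 2.54 at Oregon, Nebraska and Yerkes. Pancreas and testis were not separated (0.12, adjusted p = 0.076), and both were above thymus, by 0.66 and 0.54.

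The second SLC1A3 probe set placed cerebral cortex at 9.88 to 10.58, fibroblast at 6.85 to 7.62, pancreas at 6.61 to 7.52, testis at 6.42 to 7.12 and thymus at a median of 6.40 with a highest array of 7.17. Cerebral cortex was again above every other array, by 2.82 over fibroblast (SE 0.08, adjusted p = 1.62e-24 from limma). The middle place of fibroblast was nearly lost, since it exceeded pancreas by 0.24 (SE 0.08, adjusted p = 0.00919). By center the difference was 0.51 (Oregon), 0.13 (Nebraska) and 0.09 (Yerkes), and without the Oregon arrays it was 0.11 (adjusted p = 0.273), so the call rested on Oregon. It was also lost after quantile normalization of all 30 arrays (0.17, adjusted p = 0.0859) and without a center term (adjusted p = 0.32). Fibroblast exceeded testis by 0.68 and thymus by 0.70, and testis and thymus were not separated (0.02, adjusted p = 0.837). The distance of pancreas from cerebral cortex was 3.06 on this probe set and 5.80 on the other (SE 0.08 and 0.06). The SLC1A3 probe sets correlated at r = 0.94 over the 30 center-adjusted arrays and at r = 0.766 over the 24 outside cerebral cortex.

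S100B ran from 10.63 to 11.18 in cerebral cortex (median 10.76), from 6.82 to 7.50 in pancreas (median 7.01), from 6.19 to 6.86 in testis (median 6.34), from 5.66 to 6.27 in thymus and from 5.35 to 6.21 in fibroblast. Cerebral cortex stood apart, pancreas came second and overlapped with testis alone, and thymus and fibroblast lay below the array median on all 12 of their arrays. The overlap arose over the centers together, and within each center both pancreas arrays lay above those of testis. Cerebral cortex exceeded pancreas by 3.72 (SE 0.07, adjusted p = 1.6e-28 from limma; 13.2-fold). Pancreas exceeded testis by 0.65 (SE 0.07, adjusted p = 3.68e-09) and thymus by 1.23, and the former difference was at least 0.51 under every alternative setting tried that kept the pancreas arrays. Testis exceeded thymus by 0.59 and fibroblast by 0.67, and thymus and fibroblast were not separated (0.09, adjusted p = 0.344). S100B is also a marker of peripheral glia and of some dendritic cells. Of the 7 dendritic cell markers measured, 6 were highest in thymus, as were 17.9% of all genes. In thymus S100B was at 5.88 ± 0.23 (SD, n = 6 arrays). CD1A and CD1C, which cortical thymocytes also carry, were at 11.91 and 10.30 there, and the other 5, CD207, FLT3, LAMP3, CLEC9A and FCER1A, lay between 4.95 and 6.94.

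ALDH1L1, the folate enzyme, departed from the other astrocyte genes. Its log2 signal ran from 7.88 to 8.47 in thymus (median 8.02), from 7.65 to 8.55 in pancreas (median 8.08), from 7.26 to 7.94 in cerebral cortex (median 7.37), from 6.39 to 7.15 in testis and from 5.59 to 6.32 in fibroblast. Cerebral cortex came after both and overlapped with thymus and pancreas over the centers together, but within each center both of its arrays lay below all arrays of these tissues. Thymus exceeded cerebral cortex by 0.58 (SE 0.08, adjusted p = 4.06e-08 from limma) and pancreas did so by 0.58 (SE 0.08, adjusted p = 5.63e-08). The thymus excess was 0.59, 0.65 and 0.51 at Oregon, Nebraska and Yerkes, and that of pancreas 0.79, 0.33 and 0.61. Cerebral cortex in turn exceeded testis by 0.81 (SE 0.08) and fibroblast by 1.58 (SE 0.08), and fibroblast was below the array median on all 6 of its arrays.

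Thymus and pancreas were not separated in ALDH1L1 (0.01, SE 0.08, adjusted p = 0.94). By center, thymus minus pancreas was -0.20 (Oregon), 0.32 (Nebraska) and -0.10 (Yerkes), and among the Nebraska arrays alone thymus passed as the higher (adjusted p = 0.0491). With all 30 arrays quantile normalized as 1 set, pancreas was the higher, with a difference of -0.50 (adjusted p = 1.64e-06). Being higher in thymus than in fibroblast, pancreas and testis was the case for 14.1% of all probe sets, and being higher in testis than in fibroblast, pancreas and thymus for 10.6%. ALDH1L1, with thymus and pancreas not separated, and the weak GFAP probe set, with testis and fibroblast not separated, were not called in this way. In all, 5 of the 7 probe sets were higher in 1 tissue outside cerebral cortex than in the remaining 3, as were 68.7% of all probe sets, so the count itself did not set these genes apart. The tissue was pancreas for SLC1A2, S100B and the strong GFAP probe set and fibroblast for both SLC1A3 probe sets. The count was 3 without a center term.

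**Figure D3:**
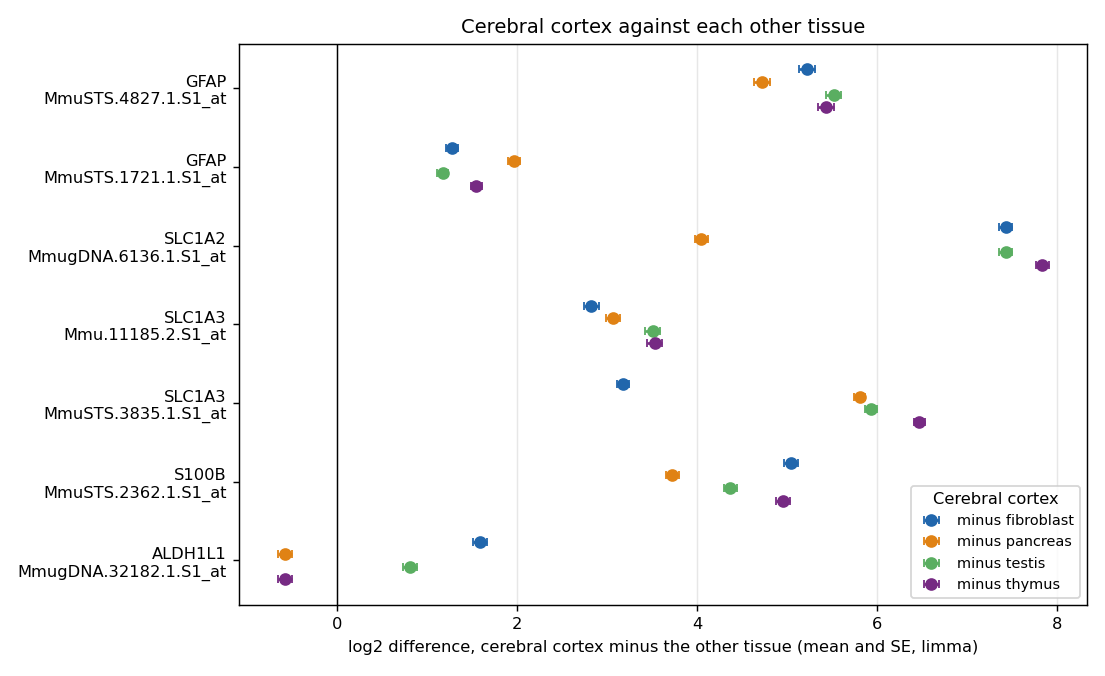
Log2 difference between cerebral cortex and each other tissue (x axis, mean with SE from limma) for the 7 probe sets (y axis), colored by the tissue subtracted. The differences of SLC1A2 from fibroblast, testis and thymus exceed 7, that from pancreas is 4.05, and those of ALDH1L1 from pancreas and thymus are -0.58.

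A tissue by center interaction, meaning that the pattern over tissues changed with the center, was called in 1 of the 7 probe sets and in 28.3% of all probe sets. It was the strong GFAP probe set (adjusted p = 0.00283 from limma). In cerebral cortex the Oregon arrays gave 11.37 and 11.41, those of Nebraska 12.03 and 11.95, and those of Yerkes 12.09 and 12.09. Outside cerebral cortex, the means at Oregon and Nebraska differed by at most 0.10 in any tissue. The excess of cerebral cortex over the mean of the other 4 tissues was 5.08, 5.62 and 4.97 at Oregon, Nebraska and Yerkes. For SLC1A2 the same values were 6.58, 6.81 and 6.65, for the weak GFAP probe set 1.58, 1.49 and 1.40, for S100B 4.48, 4.65 and 4.43, for SLC1A3 on MmuSTS.3835.1.S1_at 5.30, 5.49 and 5.23 and on the other probe set 3.23, 3.24 and 3.22, and for ALDH1L1 0.20, 0.38 and 0.35. The interaction of the second SLC1A3 probe set was near the threshold (adjusted p = 0.0708) and passed without the pancreas arrays (adjusted p = 0.0168) and where only the probe sets above the median of mean signal were tested (adjusted p = 0.0245), and that of ALDH1L1 passed after quantile normalization of all arrays (adjusted p = 0.041).

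Most of the other astrocyte genes measured were also higher in cerebral cortex. Of 25 such genes listed, 13 had a single-symbol probe set, and 10 of these were higher in cerebral cortex than in each other tissue, where 13.3% of all 14133 genes were, each gene taken by its probe set of highest mean signal. Their median difference from the highest other tissue was 1.26 on the log2 scale, against -0.57 over all genes. The largest differences were 4.01 (SE 0.09) for AGT, angiotensinogen, 3.90 (SE 0.05) for ALDOC, the brain aldolase, and 3.35 (SE 0.12) for GJB6, a connexin of astrocyte gap junctions. VIM, the vimentin of mesenchymal cells and immature astrocytes, differed from fibroblast by -4.62, and SOX9, a transcription factor of glia and of Sertoli cells, differed from testis by -1.46. The other gene not called, SLC4A4, a bicarbonate cotransporter, was highest in pancreas (7.63, against 7.03 in cerebral cortex) and was named after its value was seen. AQP4 and GJA1 were among the listed genes not measured by a single-symbol probe set.

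The relatives of SLC1A2 and SLC1A3 were spread over the tissues. The list held the SLC1 family, the vesicular glutamate transporters and the cystine and glutamate exchanger. Of its 7 measured genes, 3 (42.9%) were higher in cerebral cortex, against 13.3% of all genes. The median difference from the highest other tissue was -0.01, against -0.57 over all genes. SLC17A7, which fills the synaptic vesicles of cortical neurons, led by 4.65 (SE 0.08), SLC1A6, the transporter of cerebellar Purkinje cells, by 0.67 (SE 0.06) and SLC7A11, the exchanger, by 0.39 over fibroblast (SE 0.11, adjusted p = 0.00278). The neutral amino acid transporters of the family were highest elsewhere. SLC1A5 was at 10.06 ± 0.26 (SD, n = 6 arrays) in fibroblast and 6.43 in cerebral cortex, a difference of -3.64 (SE 0.07), and SLC1A4 differed from pancreas by -0.41. SLC1A7, the retinal transporter, differed from pancreas by -0.37, and SLC17A8 was not separated between cerebral cortex and testis (-0.01, adjusted p = 0.917).

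Enzymes and carriers that turn over glutamate and glutamine were higher in cerebral cortex more often than all genes, but not all in that direction. Of 16 measured, 7 (43.8%) were higher in cerebral cortex, against 13.3% of all genes. Pancreas was the highest tissue for 6 of them and for 28% of all genes. The median difference was -0.12, against -0.57 over all genes. The leading genes were GOT1, the cytosolic aspartate aminotransferase (2.00, SE 0.06), GAD1, which makes GABA from glutamate (1.62, SE 0.08), and ABAT, which degrades GABA (1.52, SE 0.08). GLUL, named here for its place in the astrocyte cycle although the rule for named genes did not reach it, was at 12.12 in cerebral cortex and 10.86 in pancreas, the next tissue (1.26, SE 0.06). At the other end, GLUD1, glutamate dehydrogenase, differed from fibroblast by -3.34 and ASNS, asparagine synthetase, from pancreas by -1.97. The GLUD1 probe set gave 5.62 in cerebral cortex, where the array medians averaged 6.28. GAD2, the relative of GAD1 and also outside the rule for named genes, differed from thymus by -1.89 (SE 0.08). Without the pancreas arrays 12 of the 16 were higher in cerebral cortex than in each remaining tissue.

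The relatives of S100B and ALDH1L1 were mostly highest outside the brain, as were 82.7% of all genes. Of 14 S100 genes measured, 1 was higher in cerebral cortex by the limma rule, against 13.3% of all genes. It was S100A1, which is known from heart and brain (2.22, SE 0.08 over thymus). Fibroblast was the highest tissue for 22.1% of all genes and for 7 of the 14, among them S100A4 and S100A11, with differences of -5.54 (SE 0.08) and -5.06 (SE 0.06). S100G and S100A12 differed by -0.36 each. Of 14 enzymes of folate one-carbon metabolism measured, none was higher in cerebral cortex by the limma rule, against the same 13.3%. In no case was cerebral cortex the highest tissue, as it was for 17.3% of all genes. With 14 genes each, neither count by the limma rule is far from the share of all genes. TYMS, the thymidylate synthase of dividing cells, and MTHFS differed by -4.07 (SE 0.09, from thymus) and -3.26 (SE 0.07, from testis), and GLDC, FTCD and FPGS were nearest, at -0.01 (adjusted p = 0.941, from fibroblast), -0.57 and -0.73. ALDH1L2, the mitochondrial relative of ALDH1L1, was added after its values were seen. It was at 7.83 in pancreas, 7.79 in fibroblast, 5.86 in cerebral cortex and 5.51 in thymus, so it shared with ALDH1L1 a high level in pancreas and not that in thymus.

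**Figure D4:**
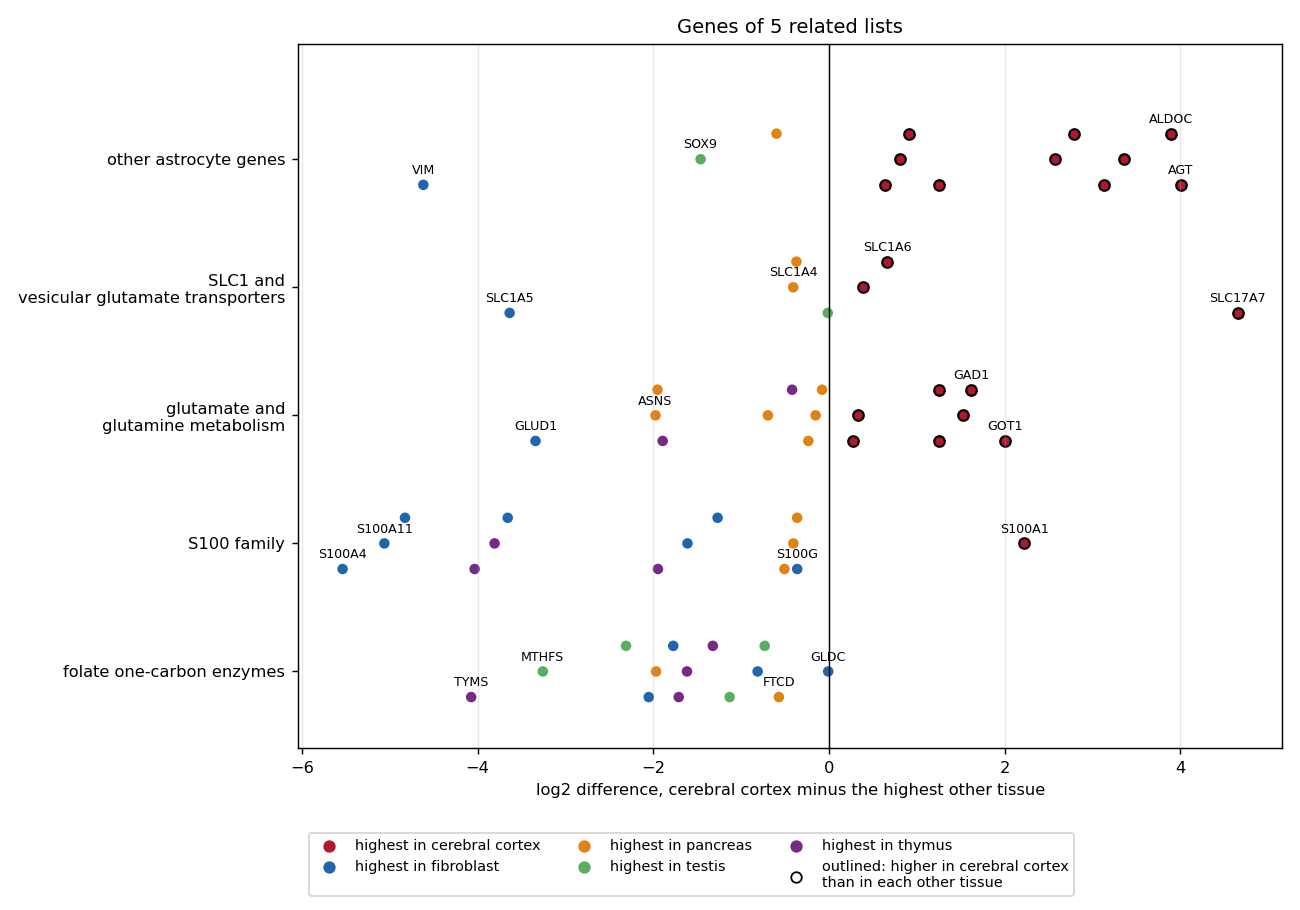
Genes of 5 related lists (y axis) by the log2 difference of cerebral cortex from whichever other tissue was highest (x axis), colored by the tissue where the gene was highest and outlined where limma called it higher in cerebral cortex than in each other tissue. Among the astrocyte genes 10 of 13 lie to the right of 0, and no folate enzyme does.

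The genes with the most similar pattern over the 30 center-adjusted arrays were found among 8342 genes whose tissue means spanned at least 1 on the log2 scale. The correlations describe 5 RNAs measured on the same arrays and carry no test. For GFAP they were NRSN1, CDH10 and MBP (Pearson r = 0.9985, 0.9972 and 0.9967) and for S100B CRMP1, CA11 and ARHGEF4 (0.9946, 0.9946 and 0.9943). SLC1A3 was taken by its probe set of highest mean, called the second SLC1A3 probe set above, on which the middle place of fibroblast was nearly lost. The most similar genes to this probe set were STMN2, BHLHE22 and SLC9A5 (0.9958, 0.9917 and 0.9896). For SLC1A2, with its second site in pancreas, they were SETBP1, LOC699802 and NCL (0.9977, 0.9949 and 0.9941). SETBP1 was at 12.42 in cerebral cortex, 8.46 in pancreas and 4.72 to 4.96 in the other tissues. For ALDH1L1 they were CCDC28A, MGAT4A and NFE2L3 (0.973, 0.9724 and 0.9688), and MGAT4A, a glycosyltransferase, was at 8.34 in pancreas, 8.08 in thymus, 7.58 in cerebral cortex, 6.60 in testis and 5.55 in fibroblast. The symbols are those of the platform annotation and were not checked against the probes. The probe set assigned to NCL, the gene of nucleolin, a protein of all nucleoli, gave 11.29 in cerebral cortex and 6.38 in thymus.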

How the data were processed

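Labeled RNA of 5 sources was hybridized to 30 rhesus macaque GeneChips, 2 aliquots of each RNA at each of 3 centers. The deposited values are log2 signals that the authors obtained from the scanner data by MAS background correction, quantile normalization within each center and RMA summarization of all arrays (RMA is also named in the submitters' processing notes). No further normalization was applied. The number of arrays limits the precision.

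Probe sets were named from the platform annotation, in which 24969 of 52865 had 1 symbol, 361 several and 27535 none, and those with several were not used. Tissues were compared with limma 3.58.1 (R 4.3.3) on all probe sets, with tissue and center as terms, moderated tests for the 10 tissue pairs and Benjamini-Hochberg adjustment over all probe sets of a comparison. A second model added the tissue by center interaction (8 terms). The methods' SAM gives no pairwise differences and was not run. A gene of a related list was taken by its probe set of highest mean signal. The fits were tested on simulated data.

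The text names every probe set of the 5 genes, up to 3 genes with the largest and up to 2 with the smallest difference of cerebral cortex from the highest other tissue in each related list, any SLC1 gene, marker genes, and the 3 genes most alike each of the 5. The genes and lists were chosen with earlier results of these data known. Alternatives were other normalizations, covariates, filters and subsets of arrays. Sequences and genome positions were not analysed here.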

Additional observations from a re-analysis of the deposited data

Results flagged for a closer look

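One value differed between centers. On the strong GFAP probe set (MmuSTS.4827.1.S1_at), the excess of cerebral cortex over the mean of the other 4 tissues was 0.648 larger at Nebraska than at Yerkes on the log2 scale (SE 0.10, adjusted p = 0.00113 from limma), with 5.62 at Nebraska and 4.97 at Yerkes. Oregon, at 5.08, differed from Nebraska by -0.54 (adjusted p = 0.00364) and was not separated from Yerkes (0.10, adjusted p = 0.779). The weak GFAP probe set gave 1.58, 1.49 and 1.40 at Oregon, Nebraska and Yerkes, and its center differences did not pass (adjusted p at least 0.595). On the strong probe set, at each center cerebral cortex had the highest GFAP level, by at least 4.44. In 35 groups of 6 arrays, 1 for each probe set and tissue, no array stood apart from the others of its group by Dixon's criterion.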

How the results depend on the processing

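Of 906 values of 22 results recomputed under alternative settings, 881 kept their direction and their side of the threshold, or for counts stayed within 1.5 times. The count of 6 probe sets higher in cerebral cortex was found in all 43 alternatives. The count higher in 1 tissue outside cerebral cortex (5) was 3 without a center term and 5 to 6 with 1 array left out. Interactions were called in 2 probe sets in place of 1 after quantile normalization of all arrays, without the pancreas arrays and among the probe sets above the median of mean signal. Without the pancreas arrays 12 genes of glutamate metabolism, 2 of the S100 family and 1 folate enzyme were called higher in cerebral cortex. With 1 array left out, the lists' counts stayed at 10, 3, 7, 1 and 0. Over all 44 alternatives the count ran from 7 to 11 for the astrocyte genes and from 5 to 12 for glutamate metabolism. It ran from 2 to 4 for the glutamate transporters, from 1 to 2 for the S100 family and from 0 to 1 for the folate enzymes. After quantile normalization of all arrays, which moved the median difference of cerebral cortex from pancreas by 0.11, testis minus fibroblast for the weak GFAP probe set reversed to -0.016. ALDH1L1, thymus minus pancreas, reversed to -0.50 with that normalization, to -0.20 within Oregon, to -0.10 within Yerkes and to -0.15 without Nebraska, and lay between -0.046 and 0.048 with 1 array left out (-0.025 and -0.046 without each Nebraska pancreas array, -0.012 and -0.029 without each Nebraska thymus array). The causes were not tested. Deviations of same-numbered arrays correlated at -0.0591 to 0.0222 at Oregon and at -0.0553 to 0.0935 at Nebraska, so aliquot numbers did not pair the arrays there. At Yerkes the range was -0.304 to 0.35 and 3 of 10 correlations exceeded 0.1, so deviations shared by some arrays of that center remain possible. With center and aliquot number as a replicate block the counts were again 6 and 5, and the block changed no call. The main model took the 2 aliquots of a tissue at a center as independent. Fitted as a random block, their correlation was 0.36, and the counts were again 6 and 5. The fibroblast excess over pancreas on the second SLC1A3 probe set then had an adjusted p = 0.0307 from limma, against 0.00919 in the main model.

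The limits lie in the design. Each tissue was 1 RNA sample, so differences between animals were not measured. The second place of pancreas for SLC1A2, S100B and the strong GFAP probe set rests on arrays that the study rated lower in quality. Signals below the array median, as for SLC1A2 and SLC1A3 in several tissues, leave folds uncertain. The order of the tissues outside cerebral cortex changed with the probe set for GFAP. For SLC1A3 the order of means was the same on both probe sets, but the size of the fibroblast excess was not.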
